A study of Mus musculus with 11 samples.

Results

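Narrow RING1B sites that carry peaks of CBX7 and of CBX6 were examined in mouse embryonic stem cells (ESCs). Members were chosen by peak position and width: a RING1B ChIP-seq peak under 5000 bp wide that shares at least 1 bp with a CBX7 peak and with a CBX6 peak in each of 2 replicates. The CBX7 list held 5081 peaks. The 2 CBX6 lists differed much in length, with 21865 peaks in replicate 1 and 5103 in replicate 2. Of 4180 RING1B peaks, 2314 met this rule (55.4%). Another 371 peaks with the same 3 overlaps were 5000 bp or wider and are called wide domains here. A further 238 narrow peaks had CBX7 but no CBX6 peak in either replicate, 419 narrow peaks had no CBX7 peak, and the remaining 838 were CBX7 sites with CBX6 from a single replicate or wide peaks that lacked an overlap. In ChIP-seq, DNA fragments bound by a protein are enriched with an antibody and sequenced, and peaks mark where they accumulate.

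The series holds 11 samples of the E14Tg2A line, grown without feeder cells in serum and LIF, with 7 from ChIP-seq and 4 from RNA-seq. CBX6 was pulled down with an anti-HA antibody from a line in which CRISPR-Cas9 had fused 3×HA to the endogenous CBX6, and the anti-HA ChIP in parental ESCs was its control. CBX7 and RING1B each had 1 ChIP with its own antibody and an IgG control, so these lists have no replicate. The control samples were not analysed here, and the peaks were taken as the authors called them. RNA-seq compared 2 libraries of ESCs infected with a lentivirus for a control shRNA (shCtl) with 2 of ESCs that carry an shRNA against Cbx6 (shCbx6). The tagged cells are an engineered line derived from sorted single cells, and the shRNA cells are infected populations. Whether replicates came from separate cultures is not given in the sources used here, so a p-value measures only the spread between these samples, which may be technical.

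RING1B is the ubiquitin ligase of Polycomb repressive complex 1 (PRC1), which adds ubiquitin to histone H2A. In canonical PRC1 a CBX protein brings a chromodomain that can bind methylated histone H3, and CBX7 is the main CBX protein of ESCs. In ESCs these complexes gather on CpG islands, stretches rich in unmethylated CG dinucleotides, at the start sites of developmental genes that are silent or weakly transcribed.

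The DNA at the centre of 8 sites is shown to let the CpG content be read directly, with each CpG in capitals and the plus strand of mm9 (assembly NCBIM37) written 5′ to 3′ for 200 bases. The first 5 are strong sites at a gene of the lists described further on, 1 per list, taken by RING1B score with ties at 3100 in alphabetical order, leaving out windows that overlap an annotated untranslated region. They lie at genes for the basic helix-loop-helix factor BHLHE23, the retinoic acid synthesizing enzyme ALDH1A2, the growth factor BMP2, the calcium channel subunit CACNA2D3 and the cadherin CDH22.
Bhlhe23, chr2:180510989-180511188: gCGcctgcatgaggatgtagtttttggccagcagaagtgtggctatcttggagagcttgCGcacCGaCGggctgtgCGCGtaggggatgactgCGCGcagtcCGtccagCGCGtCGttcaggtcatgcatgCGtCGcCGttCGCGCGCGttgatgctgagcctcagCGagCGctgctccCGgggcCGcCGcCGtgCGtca
Aldh1a2, chr9:71064311-71064510: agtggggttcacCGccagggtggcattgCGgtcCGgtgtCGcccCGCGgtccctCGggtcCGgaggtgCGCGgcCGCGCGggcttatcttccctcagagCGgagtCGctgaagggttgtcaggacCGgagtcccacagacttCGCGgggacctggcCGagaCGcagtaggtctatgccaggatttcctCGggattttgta
Bmp2, chr2:133379155-133379354: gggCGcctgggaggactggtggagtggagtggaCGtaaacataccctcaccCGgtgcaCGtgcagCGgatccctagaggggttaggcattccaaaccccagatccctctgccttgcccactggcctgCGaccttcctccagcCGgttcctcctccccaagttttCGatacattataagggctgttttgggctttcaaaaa
Cacna2d3, chr14:30535077-30535276: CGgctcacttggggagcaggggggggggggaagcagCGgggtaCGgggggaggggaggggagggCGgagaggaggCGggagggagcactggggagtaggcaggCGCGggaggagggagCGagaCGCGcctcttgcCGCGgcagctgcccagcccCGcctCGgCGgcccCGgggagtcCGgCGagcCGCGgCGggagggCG
Cdh22, chr2:165059760-165059959: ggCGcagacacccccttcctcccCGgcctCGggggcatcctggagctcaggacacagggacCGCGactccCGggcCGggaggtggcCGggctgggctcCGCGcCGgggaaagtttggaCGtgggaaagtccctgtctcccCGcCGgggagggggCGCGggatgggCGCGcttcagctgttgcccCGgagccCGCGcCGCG
These windows held 26, 21, 8, 22 and 23 CpG in that order. The Bhlhe23 window overlaps a coding exon, those of Aldh1a2, Bmp2 and Cdh22 lie in introns, and that of Cacna2d3 lies just upstream of the gene. The other 3 are the sites with the lowest RING1B scores at a transcription start site, all centred in introns: Phldb2, for a protein of the cell cortex, at an internal start site of the gene, Bcl6, for a transcriptional repressor, and Tead4, for a transcription factor of the trophectoderm.
Phldb2, chr16:45843966-45844165: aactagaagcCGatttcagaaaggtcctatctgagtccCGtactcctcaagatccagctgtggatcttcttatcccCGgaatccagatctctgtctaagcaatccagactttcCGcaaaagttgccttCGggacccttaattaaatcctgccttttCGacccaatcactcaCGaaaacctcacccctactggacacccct
Bcl6, chr16:23988059-23988258: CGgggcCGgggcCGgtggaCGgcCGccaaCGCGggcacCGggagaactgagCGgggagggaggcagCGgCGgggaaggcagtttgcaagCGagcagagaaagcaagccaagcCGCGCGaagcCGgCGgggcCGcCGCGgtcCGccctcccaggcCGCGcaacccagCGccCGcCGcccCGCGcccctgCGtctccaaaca
Tead4, chr6:128250091-128250290: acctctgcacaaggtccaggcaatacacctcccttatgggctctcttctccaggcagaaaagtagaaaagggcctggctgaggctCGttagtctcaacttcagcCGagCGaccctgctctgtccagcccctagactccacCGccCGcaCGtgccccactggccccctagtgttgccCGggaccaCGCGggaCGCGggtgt
These windows held 7, 29 and 11 CpG. The weakest and the strongest sites therefore spanned overlapping ranges of CpG number, and the richest of the 8 windows belonged to Bcl6, whose RING1B score of 50.3 was close to 50.0, the lowest score in the 4 lists.

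Peak strength varied widely among the 2314 sites. The MACS score of a peak is a log-scaled p-value that the authors deposited, and it chose no member, although the lists it comes from did. RING1B scores ran from 50.3 to 3225 with a median of 657, and the middle 50% of sites lay between 253 and 1631. The median scores of the overlapping peaks were 682 for CBX7, 145.01 for CBX6 replicate 1 and 270 for CBX6 replicate 2. Scores above 3100, a value that many sites share, were listed for 16 sites, and the highest at a gene's start were those of Lrfn5, for a synaptic adhesion protein, Pgr, for the progesterone receptor, Cachd1, for a calcium channel regulator, Cdh2, for N-cadherin, and Dlk1, for a Notch-like ligand, at 3225, 3214, 3208, 3183 and 3176. The HA and CBX7 ChIPs were extracted with a kit and the RING1B ChIP by another protocol, and sequencing depth is unknown, so scores are compared only within a list. A score of exactly 3100 recurred in 219 of the sites (9.46%) for RING1B, against 278 of 371 wide domains (74.9%), and peaks at that value cannot be ranked among themselves or against the few above it. Sites with high RING1B scores were also wider and scored higher in the other lists. Spearman's rho across the 2314 sites was 0.87 between RING1B and CBX7 scores, 0.73 between RING1B and CBX6 replicate 2, 0.32 between RING1B and CBX6 replicate 1, and 0.76 between RING1B score and width. The 2 CBX6 replicates had a rho of only 0.33 with each other, and all these scores depend on the depth and the width of the same loci.

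Split into quartiles by RING1B score, with median scores of 138, 423, 1021 and 2802, the sites had median widths of 1915, 2324, 2709 and 3521 bp. Median CBX7 scores in the same quartiles were 225, 458, 913 and 2204, and those of CBX6 replicate 2 were 121, 186, 337 and 766. In CBX6 replicate 1 they were 118, 127, 140 and 211, so that the lower 3 quartiles were close together and the top quartile stood apart. The share of sites at a TSS was 81.9%, 85.3%, 81.8% and 88.4%, with no steady order.

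The rule asked for an overlap of only 1 bp, and its extent is given as a description. Median coverage of the RING1B site was 95.2% by the CBX7 peak, 73.6% by the CBX6 peak of replicate 1 and 78.7% by that of replicate 2. Over all RING1B peaks that met such a peak it was 94.96%, 74.0% and 80.1%, close to the values of these sites. The centre of the CBX7 peak lay a median of 142.5 bp from the RING1B centre, and the CBX6 centres lay 221 bp and 177 bp away. Of the 2314 sites, 2294 were covered over at least 50% of their length by CBX7, 2016 by CBX6 replicate 1 and 2094 by CBX6 replicate 2. The median width was 2569 bp, with a range from 885 to 4982 bp. Just inside the width limit stood the sites at Nkx1-2, 4982 bp, and Scrt1, 4981 bp, and a site of 4982 bp between genes whose nearest coding TSS, 30199 bp away, is that of Tbx5. Just outside it stood those at Csmd1, 5017 bp, Bai2, 5032 bp, and Cdh11, 5035 bp, and all 6 had a RING1B score of 3100, so the limit divides a continuous range of widths.

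Most narrow shared sites lay at promoters. Of the 2314 sites, 1952 (84.4%, 95% Wilson interval 82.8 to 85.8%) came within 2.5 kb of an annotated transcription start site (TSS), and 1846 (79.8%) contained a TSS. The share was higher in wide domains (93.0%, 89.9 to 95.2%), lower in narrow CBX7 peaks without CBX6 (71.4%, 65.4 to 76.8%) and lower in narrow peaks without CBX7 (74.2%, 69.8 to 78.2%). These intervals cover counting error only and do not overlap that of the narrow shared sites. The 2 other narrow classes were also narrower, with median widths of 1509 and 1340 bp against 2569 bp. Their median RING1B scores were 114 and 75.6, against 657. A wider peak can reach a TSS from further away, and the part of width and score in these shares was not tested. Site centres at a TSS fell downstream of it in 73.3% of cases, with a median position 202 bp into the gene. By annotation, 716 centres lay in an intron, 582 in a coding exon, 478 in an untranslated region, 90 in a non-coding exon and 448 between genes. Away from TSS, 153 sites lay inside a gene and 209 between genes.

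**Figure D1:**
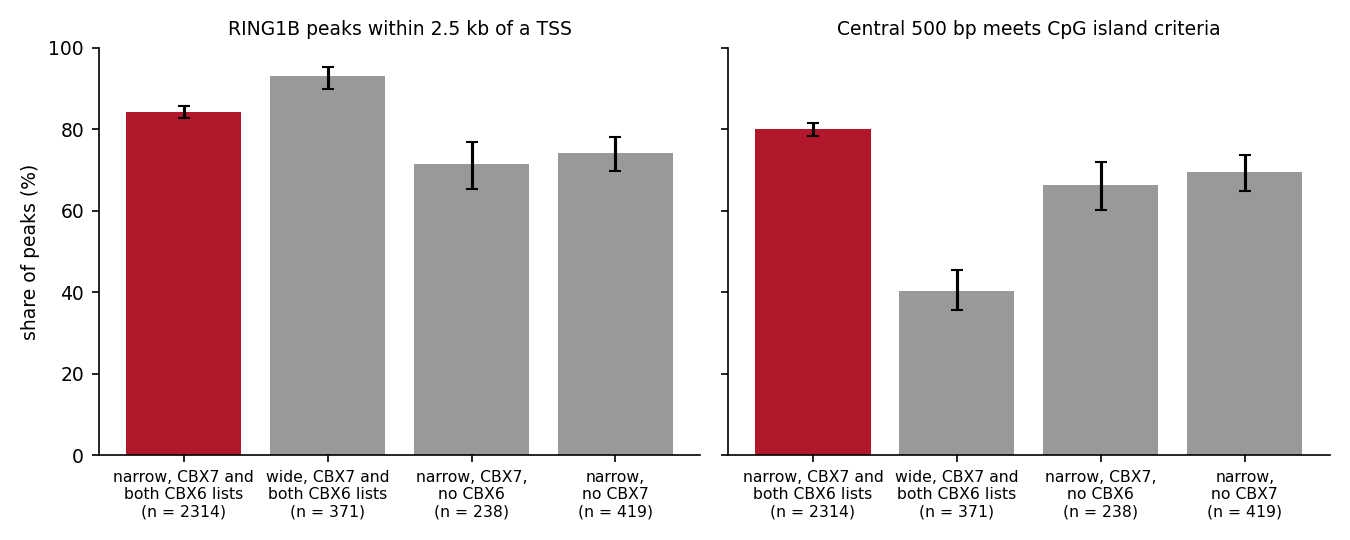
Share of RING1B peaks (y axis, percent) within 2.5 kb of a TSS (left) and with a central 500 bp that meets the CpG island criteria (right), for 4 classes of peaks; bars show the share and whiskers the 95% Wilson interval. Narrow shared sites (red) stand at 84.4% and 80.0%, and wide domains at 93.0% and 40.4%.

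The centres of these sites were rich in CpG. In the central 500 bp the median GC content was 66.0% and the median ratio of observed to expected CpG was 0.79, against 45.7% and 0.20 in windows 5 kb to either side. A median of 42 CpG lay in that window. The usual criteria of a CpG island, a GC content of at least 50% with a ratio of at least 0.6, were met by 1852 sites (80.0%, 78.4 to 81.6%). Windows centred on the TSS of 22322 protein-coding genes met them in 47.7% of cases. The share was 66.4% (60.2 to 72.1%) in narrow CBX7 peaks without CBX6 and 69.5% (64.9 to 73.7%) in narrow peaks without CBX7. In wide domains, whose median width was 7282 bp, it was 40.4% (35.6 to 45.5%). Over whole peaks the classes were closer, with median CpG ratios of 0.61 in narrow shared sites, 0.56 in wide domains, 0.53 in narrow CBX7 peaks without CBX6 and 0.61 in narrow peaks without CBX7. Among narrow shared sites away from a TSS the share was 69.9%. CpG content hardly followed the RING1B score (Spearman's rho 0.07 across sites), with a median ratio of 0.76 in the lowest quartile of scores and 0.80 in the highest.

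Short motifs were counted on both strands of the same central 500 bp as a description. CGCG was present in 91.1% of narrow shared sites, 84.9% of narrow CBX7 peaks without CBX6, 87.8% of narrow peaks without CBX7, 59.3% of wide domains and 57.3% of coding TSS windows, so it was frequent in all classes of narrow peaks. TTCCCGC, a core recognized by E2F factors, was present in 13.9% of sites, against 17.2% of narrow CBX7 peaks without CBX6, 15.5% of narrow peaks without CBX7 and 9.51% of TSS windows. CACGTG, the E-box of MYC and MAX, was present in 9.20% of sites, in 29.8% of narrow peaks without CBX7 and in 10.4% of TSS windows. AGATAA, bound by factors of the GATA family, was present in 6.78% of sites, in 7.98% of narrow CBX7 peaks without CBX6, in 5.97% of narrow peaks without CBX7, in 16.7% of wide domains and in 14.7% of TSS windows. CGCG can overlap other CG-rich words, and a match is no evidence of binding.

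Chromosome X had few narrow shared sites. Of its 130 RING1B peaks, 7 were members (5.38%), whereas the autosomes ranged from 42.8% to 69.3%. The chromosome held 136 CBX7 peaks, within the autosomal range of 126 to 449. It held 53 CBX6 peaks in replicate 1 and 93 in replicate 2, whereas each autosome held at least 539 in replicate 1 and 145 in replicate 2. As both lists are part of the rule, this is a description.

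Genes with a narrow shared site at their TSS numbered 1984 of 21908 with coordinates (9.06%), and 1886 of them were protein coding. Several sites served more than 1 gene: 143 sites lay at the TSS of at least 2 genes, and 56 genes had at least 2 sites. A TSS could be that of any annotated transcript, and for 156 of the 1984 genes (7.86%) the centre of the site lay more than 5000 bp past the start of the gene. A total of 414 genes had a RING1B peak of 5000 bp or more at their TSS (1.89%), and 33 genes had both kinds. Of the 1984 genes, 345 (17.4%) stood on at least 1 of 19 gene lists for developmental regulators, signalling pathways and other families.

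**Figure D2:**
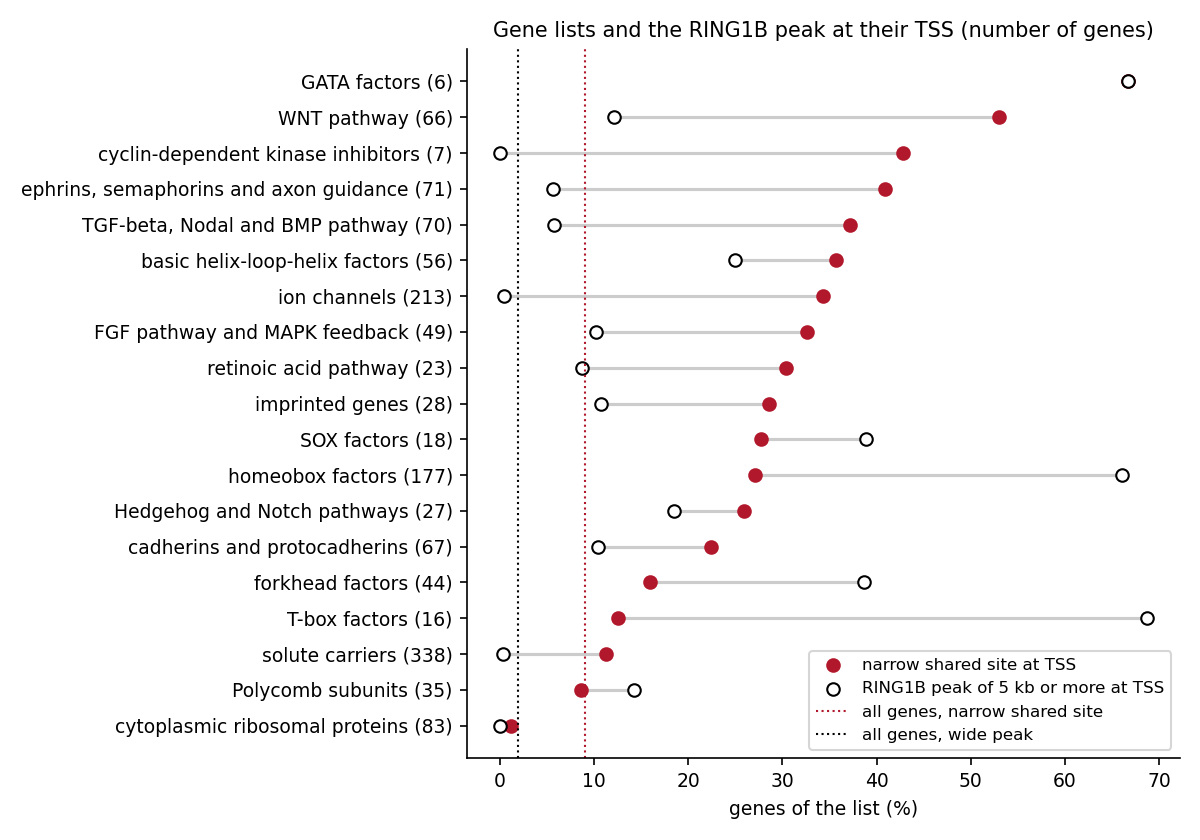
Percentage of the genes of each list (number of genes in brackets) with a narrow shared site at the TSS (red) or a RING1B peak of 5 kb or more at the TSS (open circles); dotted lines mark the shares over all genes, 9.06% and 1.89%. Signalling and channel lists have their red point to the right of the open one, and homeobox, T-box, forkhead and SOX lists the reverse.

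Signalling genes carried narrow sites. In the WNT pathway 35 of 66 genes (53.0%) had a narrow shared site at the TSS and 8 had a wide peak. By role, the sites reached 11 of 19 WNT ligands, 12 of 17 receptors and 7 of 14 secreted regulators, including the ligand genes Wnt1, Wnt2 and Wnt6 and the Frizzled receptor genes Fzd1 and Fzd8. Wnt1, Wnt6, Fzd1 and Fzd8 all had the recurring RING1B score of 3100. In the TGF-beta, Nodal and BMP pathway the count was 26 of 70 (37.1%) against 4 with a wide peak, and 6 of 11 BMP ligands, all 3 TGF-beta ligands and 3 of 8 Smad genes were among them. FGF genes and MAPK feedback regulators had narrow sites at 16 of 49 (32.7%), with 3 of 4 FGF receptors and 8 of 22 ligands. Ephrins, semaphorins and other axon guidance genes had them at 29 of 71 (40.8%), with 5 of 14 ephrin receptors and all 4 Unc5 netrin receptors. Hedgehog and Notch genes had them at 7 of 27 (25.9%), among them Ptch1, the Hedgehog receptor, and Gas1, its co-receptor.

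Channels and adhesion genes were also among the members. Ion channel genes had a narrow site at 73 of 213 (34.3%) and a wide peak at 1. They included 40 of 93 potassium channel genes, 14 of 26 calcium channel genes and 8 of 17 glutamate receptor genes, but only 4 of 19 GABA receptor genes and 2 of 13 sodium channel genes, with Cacna2d3 and the NMDA receptor gene Grin2a both at a RING1B score of 3100. Cadherins and protocadherins had narrow sites at 15 of 67 (22.4%), among them Cdh2, for N-cadherin, with a score of 3183. Solute carriers had them at 38 of 338 (11.2%), close to the share over all genes. Ribosomal protein genes had 1 of 83 (1.20%).

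Transcription factor families were divided between narrow sites and wide peaks. Homeobox genes had a narrow site at 48 of 177 (27.1%) and a wide peak at 117 (66.1%), with 7 genes having both. Of 39 Hox genes, which specify position along the body axis, 6 had a narrow site and 32 a wide peak. T-box genes had 2 of 16 against 11, forkhead genes 7 of 44 against 17, and SOX genes 5 of 18 against 7. GATA genes were evenly split at 4 of 6 each, with Gata2, Gata3 and Gata4 in both counts. Basic helix-loop-helix genes had 20 of 56 (35.7%) with narrow sites against 14 with wide peaks, including 6 of 9 Hes and Hey genes, the effectors of Notch signalling.

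Among smaller groups, 3 of 7 genes for cyclin-dependent kinase inhibitors had a narrow site: Cdkn1c, Cdkn2a and Cdkn2c. Retinoic acid genes had 7 of 23, among them Aldh1a2 with 3100 in the RING1B and the CBX7 lists. Imprinted genes had 8 of 28, among them Dlk1, whose site scored 3176, and Gnas, with 3100. Polycomb genes themselves had 3 of 35: Auts2, Yaf2 and Cbx2, genes for a subunit of a variant PRC1, a relative of RYBP and a CBX protein. No gene list was tested for enrichment, and these shares are counts beside the share over all genes.

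Genes at narrow shared sites were weakly expressed in shCtl cells. FPKM is the number of fragments per kilobase of transcript, scaled to the fragments mapped in the library, so levels can be compared between genes. The median over the 1984 genes was 0.26 FPKM in both shCtl libraries, against 0.96 in both over all genes. In the mean of the shCtl libraries, 1397 genes (70.4%, 68.4 to 72.4%) lay under 1 FPKM, against 50.0% of all genes. Wide domains had 86.5% (82.8 to 89.5%) of their genes under 1 FPKM. Narrow peaks with CBX7 but no CBX6 had 77.0% (70.0 to 82.7%), and their interval overlaps that of the narrow shared sites. Narrow peaks without CBX7 had 38.8% (33.5 to 44.3%) and a median of 2.73 FPKM. Of the 1984 genes, 79 were listed at 0 in all 4 libraries, against 4019 of all 21908 genes, a larger share. At the other end, 86 (4.33%) reached 10 FPKM, against 27.2% of all genes. In bulk RNA-seq, fewer cells of a type and less RNA per cell cannot be told apart.

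**Figure D3:**
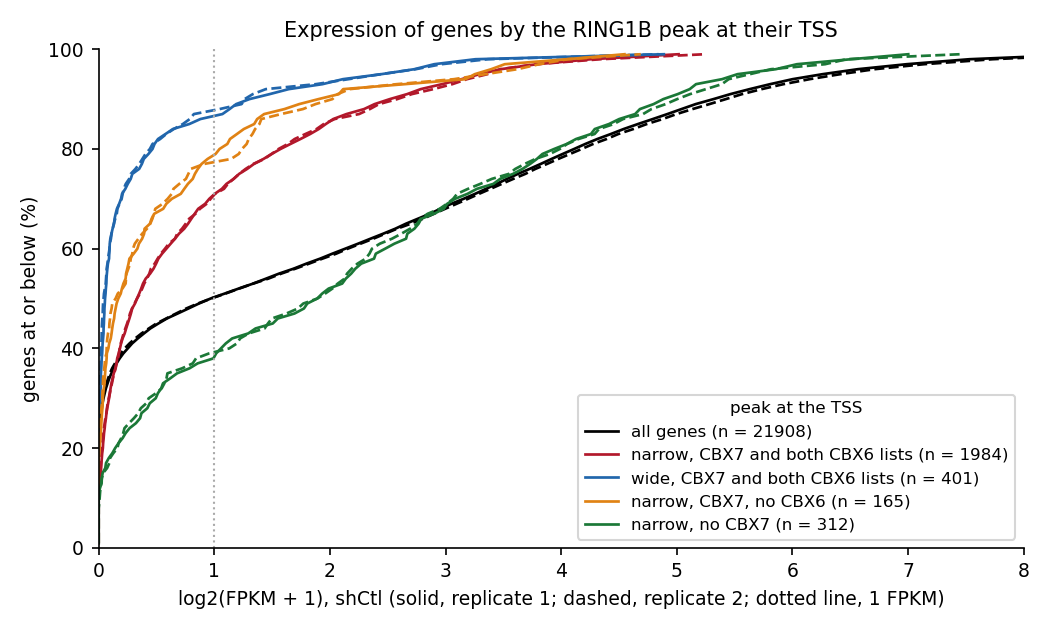
Cumulative share of genes (y axis, percent) by level in shCtl, as log2(FPKM + 1) on the x axis, for all genes and for genes grouped by the RING1B peak at their TSS; solid and dashed lines are the 2 shCtl libraries and the dotted line marks 1 FPKM. The curve of the 1984 genes at narrow shared sites crosses that line near 70.4%, between wide domains and all genes.

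Within the narrow shared sites, levels were lower where the RING1B score was higher, and the choice of sites did not use RNA. From the lowest to the highest quartile of RING1B score, the share of genes under 1 FPKM was 51.4% (46.9 to 55.8%), 64.0% (59.7 to 68.2%), 78.6% (74.7 to 82.0%) and 85.9% (82.7 to 88.6%). The quartiles held 481, 484, 481 and 538 genes, each gene counted at its highest-scoring site. Median levels were 0.86, 0.45, 0.18 and 0.10 FPKM in the first shCtl library and 0.94, 0.46, 0.17 and 0.10 FPKM in the second. Both libraries gave the same order of quartiles. Genes whose site met the CpG island criteria were under 1 FPKM in 68.9% of cases and the others in 77.5%. As no gene set was resampled, these differences carry no p-value.

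Some genes at narrow sites were highly expressed, and 3 of the 5 highest had a site centred in a neighbouring gene. The 5 with the highest shCtl levels were Rpl7, Esrrb, Eef1d, Shmt2 and Gnas. Rpl7, a ribosomal protein gene, stood at 2040 and 2514 FPKM, but its site is centred at -1360 bp from its TSS, in a coding exon of the retinol dehydrogenase gene Rdh10 and 248 bp past the start of that gene. Eef1d, for a translation elongation factor subunit, stood at 191 and 189 FPKM, and its site is centred at -895 bp, in an exon of Tigd5. Shmt2, for a mitochondrial enzyme of one-carbon metabolism, stood at 172 and 174 FPKM, and its site is centred at -3765 bp, in a coding exon of Nxph4. Esrrb, for a nuclear receptor of the pluripotency network, stood at 203 and 189 FPKM with a site centred in its own intron, 693 bp past the TSS of an internal transcript and 61459 bp past the start of the gene, with scores of 1143 for RING1B and 1718 for CBX7. Gnas, for the stimulatory G protein alpha subunit and an imprinted locus with several promoters, stood at 116 and 122 FPKM with a RING1B score of 3100 at a site 579 bp past an internal TSS. In shCbx6, Esrrb stood at 151 and 87.2 FPKM and Shmt2 at 108 and 110, and neither passed limma (log2 fold change -0.76 ± 0.28 (SE) and -0.66 ± 0.14, adjusted p = 0.40 and 0.20, n = 2 per group).

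The cells were checked for their label before the knockdown was examined. All 10 ESC markers lay above 1 FPKM in every library, with sums of 7802 and 8942 FPKM in shCtl and 7184 and 6145 in shCbx6. Dppa5a alone gave 4580 and 5397 against 4544 and 3601 FPKM of these sums. Klf4, for a pluripotency factor, stood at 91.1 and 96.7 FPKM against 36.7 and 28.0 in shCbx6, and Nanog, for another, at 321 and 359 against 204 and 192 (adjusted p = 0.084 and 0.19 by limma). Utf1, another marker, stood at 136 and 191 against 195 and 254 FPKM, Klf2 at 67.6 and 102 against 93.9 and 92.6, and Sox2 at 133 and 152 against 159.9 and 140.5. The fitted log2 fold change was below 0 for 7 of the 10 and above 0 for these 3, and none of the 10 passed limma. Cbx6 itself stood at 17.4 and 14.9 FPKM in shCtl against 9.53 and 5.40 in shCbx6. The Cbx6 groups do not overlap, but the difference did not pass limma (log2 fold change -1.06 ± 0.26 (SE), n = 2 per group, adjusted p = 0.25). The 2 shCbx6 libraries stood apart from each other: 16.1% of tested genes differed by at least 1.5-fold between them, against 9.31% between the shCtl libraries. Which shRNA against Cbx6 each of them carries is not given in the sources used here, so this spread can include a difference between shRNAs. The 6 trophectoderm markers summed to 2.98 and 2.496 FPKM in shCtl, to 8.40 in shCbx6 replicate 1 and to 20.9 in replicate 2, with 1 marker at 1 FPKM or more in each of the first 3 libraries, 3 in the last and none at 0. Tfap2c alone gave 2.84 and 2.21 FPKM of these sums in shCtl and 7.41 and 9.04 in shCbx6, and Krt7 gave 9.02 in replicate 2. The 7 fibroblast markers summed to 1.72 and 1.69 FPKM in shCtl and to 1.37 and 4.67 in shCbx6, with 3 and 4 markers at 0 in shCtl, 1 and 2 in shCbx6, and Lum at 0 in all 4 libraries. Thy1, which has a narrow shared site at its TSS, gave 1.68 and 1.64 FPKM of these sums in shCtl and 1.16 and 3.82 in shCbx6, and the other 6 markers stood under 1 FPKM. The 6 primitive endoderm markers summed to 1.95 and 1.76 FPKM in shCtl and to 1.69 and 2.64 in shCbx6, with Foxa2 at 0 in shCbx6 replicate 1. Their part in the results that follow was not tested.

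The response of the site-bearing genes to shCbx6 was examined next. A site anywhere from 2.5 kb upstream of the gene to its end made 2122 target genes, of which 738 passed the filter of a mean of 1 FPKM in either group and 1384 did not. Of the 738, 556 passed in both groups, 120 only through shCbx6 and 62 only through shCtl, and the last 2 sets had to differ. limma on log2(FPKM + 1) with Benjamini-Hochberg adjustment called 1 target gene, Mapt, lower in shCbx6, and Mapt itself passed the filter only through shCtl. Over all 11577 genes tested it called 11 (0.095%). At an unadjusted p under 0.05, 108 target genes (14.6%) were higher and 85 (11.5%) lower, against 5.11% and 6.55% of all 11346 tested genes with coordinates. By the ratio of mean FPKM, which carries no test, 193 target genes (26.2%) were at least 1.5-fold higher against 7.64% of all tested genes, and 106 (14.4%) at least 1.5-fold lower against 6.56%. Both shCbx6 values lay above both shCtl values for 236 (32.0%), against a background of 18.9%, and below them for 189 (25.6%), against 24.3%. All these counts include the genes admitted through a single group. The counts by p and by non-overlap were not repeated without those genes. An exact permutation test of 2 against 2 libraries cannot give a p below 0.333.

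The 2 shCbx6 libraries differed in these counts. Compared with the mean of the shCtl libraries, replicate 2 had 252 target genes (34.1%) at least 1.5-fold higher and 125 (16.9%) lower, against 11.3% and 9.98% of all tested genes. Replicate 1 had 133 (18.02%) higher and 131 (17.8%) lower, against 5.59% and 7.33%. The median log2 difference of the tested target genes was -0.03 in replicate 1 and 0.17 in replicate 2, against -0.06 and 0.02 over all tested genes. In both replicates at once, 111 target genes (15.0%) were at least 1.5-fold higher, against 4.05% of all tested genes, and 79 (10.7%) were at least 1.5-fold lower, against 3.99%. Among the 738 target genes 40.1% differed at least 1.5-fold between the 2 shCbx6 libraries, and 16.3% between the 2 shCtl libraries, so that more of these genes than of all genes varied within each group. Of the 556 that passed the filter in both groups, 17.1% were at least 1.5-fold higher and 11.2% lower, against 5.08% and 5.04% of all 10665 such genes.

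The share of genes at least 1.5-fold higher in the mean of shCbx6 varied with the level. Among tested genes without any RING1B peak it was 17.98% under 2 FPKM and 2.49% at 20 FPKM or more. Among those that reached 1 FPKM in both groups the contrast was smaller, at 6.23% and 2.32%. The shares were therefore also read within bands of the mean FPKM over all 4 libraries. Genes admitted by the filter through a single group had to differ and lie mostly in the lowest band, so the bands hold only genes that reached 1 FPKM in both groups. From 5 to 20 FPKM, 24 of 178 target genes (13.5%) were at least 1.5-fold higher in shCbx6 replicate 1 and 48 (26.97%) in replicate 2, against 2.45% and 7.29% of 3717 genes without a peak. At least 1.5-fold lower were 10.1% and 12.9% of the target genes, against 4.65% and 7.51% of the others. From 2 to 5 FPKM, 12.4% and 32.2% of 202 target genes were higher, against 5.18% and 12.2% of 1642 genes. Lower were 18.3% and 13.4%, against 9.62% and 12.5%, so that in replicate 1 more target genes of this band were lower than higher. Under 2 FPKM, 5.07% and 20.3% of 138 target genes were higher, against 5.56% and 12.96% of 594 genes, so that in this band replicate 1 showed no excess. Lower in the same band were 20.3% and 18.8% of the target genes, against 13.8% and 17.0%. At 20 FPKM or more only 38 target genes were left, of which 6 and 8 (15.8% and 21.1%) were higher, against 2.40% and 4.34% of 3756 genes without a peak. In the same band 1 and 2 (2.63% and 5.26%) were lower, against 2.48% and 5.62%. The bands are a description and carry no test.

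**Figure D4:**
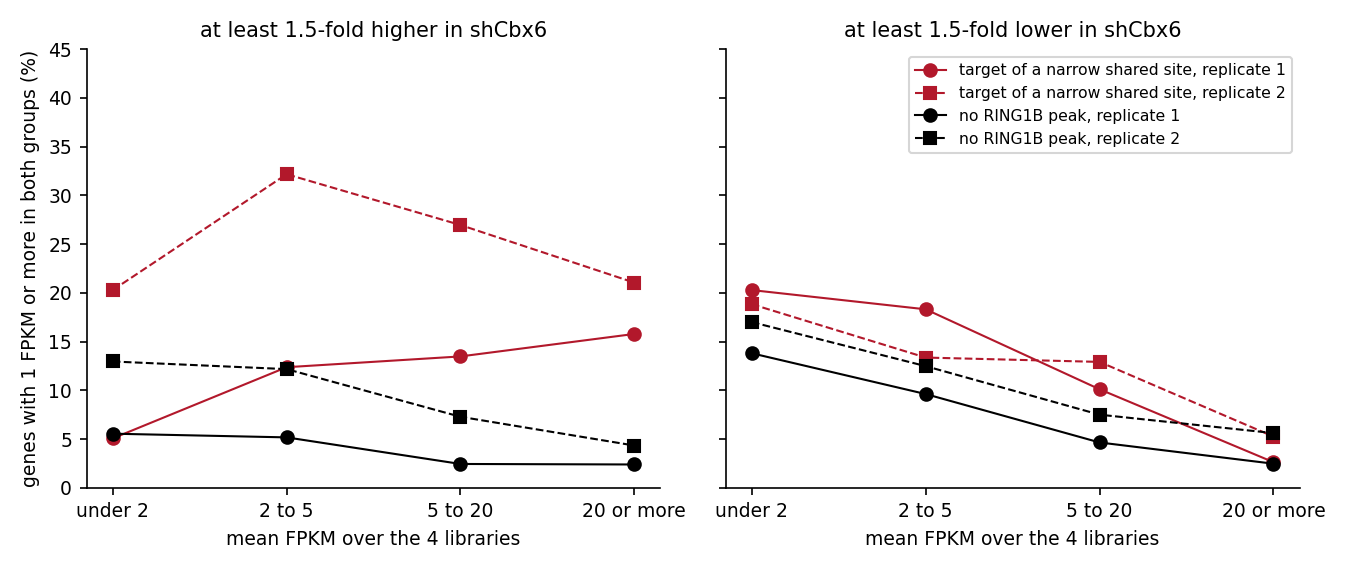
Percentage of genes with at least 1 FPKM in both groups (y axis) that were at least 1.5-fold higher (left) or lower (right) in a shCbx6 library than in the mean of shCtl, by band of mean FPKM over the 4 libraries (x axis); red, target genes of narrow shared sites, and black, genes without a RING1B peak; circles and squares are shCbx6 replicates 1 and 2. For higher values the red points lie above the black points of the same library from 2 FPKM upwards, whereas under 2 FPKM replicate 1 stands at 5.07% against 5.56%.

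The 5 genes with the largest fitted increases among those whose groups do not overlap were Mir1199, Krt18, Cyr61, Gadd45g and Cldn7, and none passed limma. Krt18, for a keratin of simple epithelia, stood at 3.66 and 6.91 FPKM in shCtl and at 13.2 and 122 in shCbx6 (log2 fold change 2.78 ± 0.995 (SE), n = 2 per group, limma adjusted p = 0.39). Its log2 fold change was 1.22 without shCbx6 replicate 2 and 4.34 without shCbx6 replicate 1, so its size rested on replicate 2. Cyr61, for a matricellular protein, stood at 1.14 and 1.34 against 4.75 and 23.5 FPKM. All 5 genes were highest in shCbx6 replicate 2, the library with the highest trophectoderm, fibroblast and primitive endoderm sums, and a link was not tested. Gadd45g, for a stress-inducible growth regulator, stood at 0.14 and 0.38 against 2.81 and 7.74 FPKM, and Cldn7, for a tight junction claudin, at 1.54 and 4.25 against 7.99 and 29.5 FPKM. The Mir1199 entry, a microRNA precursor, was listed at 0 in both shCtl libraries and at 8.44 and 21.5 FPKM in shCbx6, and its site also covers the TSS of 2210011C24Rik. Without shCbx6 replicate 1, in a fit with a single library in that arm, limma called all 5, of which Mir1199 and Gadd45g passed the filter only through shCbx6 and so had to differ. In all 5 the lower shCbx6 value was replicate 1, and it lay above both shCtl values by choice of the genes.

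The 5 largest decreases were Mras, Mapt, Atp2a3, Sema5b and Igsf21. Mapt, for the microtubule-associated protein tau, stood at 6.94 and 7.44 FPKM in shCtl and at 0.65 and 0.91 in shCbx6 (log2 fold change -2.21 ± 0.165 (SE), n = 2 per group, limma adjusted p = 0.032). Its 4 values fall into 2 tight pairs, and the log2 fold change was -2.25 without shCtl replicate 1 and -2.16 without replicate 2. In those fits, with a single library in an arm, the adjusted p was 0.19 and 0.27, and without the FPKM filter it was 0.23 at an unchanged log2 fold change of -2.21. The Mapt site spans chr11:104092414-104096050 and is centred 1334 bp past the TSS in an intron, and its central 200 bases held 12 CpG.
Mapt, chr11:104094132-104094331: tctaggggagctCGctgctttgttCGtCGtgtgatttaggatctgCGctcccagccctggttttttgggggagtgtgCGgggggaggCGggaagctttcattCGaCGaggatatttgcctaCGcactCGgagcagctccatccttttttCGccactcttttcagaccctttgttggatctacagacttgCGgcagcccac
Mras, for a RAS-related GTPase, stood at 27.3 and 26.1 FPKM against 7.53 and 2.33 (adjusted p = 0.16 by limma), and its site, at a RING1B score of 52.9, was among the weakest. Atp2a3, for a calcium pump of the endoplasmic reticulum, stood at 16.6 and 20.3 against 4.56 and 2.40 FPKM (adjusted p = 0.087 by limma). Sema5b, for a semaphorin, stood at 4.44 and 2.99 against 1.04 and 0.21 FPKM. Its narrow site, with a RING1B score of 293.85, lies in a coding exon at an internal TSS, 119000 bp past the start of the gene, and the gene also has a wide RING1B peak at a TSS. Igsf21, for an immunoglobulin superfamily protein, stood at 3.95 and 4.38 against 1.32 and 0.33 FPKM. In each of these 4 genes, none of which passed, the shCbx6 values lay below both shCtl values by choice, with replicate 2 the lower. All 4 were called without shCbx6 replicate 1, again with a single library in that arm, and Sema5b and Igsf21 passed the filter only through shCtl.

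**Figure D5:**
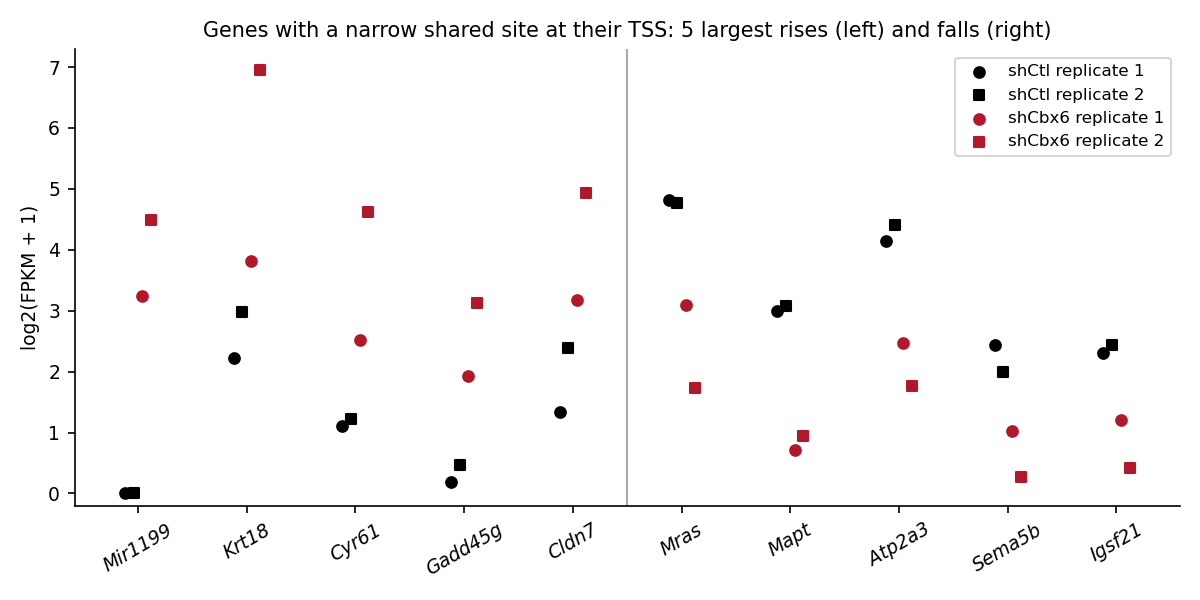
Levels as log2(FPKM + 1) (y axis) of the 5 largest increases (left) and 5 largest decreases (right) among genes with a narrow shared site at the TSS; black, shCtl, and red, shCbx6; circles and squares are replicates 1 and 2. The shCbx6 points lie above or below both shCtl points by choice, and Mapt alone passed limma.

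Of the 345 listed genes with a narrow site at the TSS, 90 were tested and limma called 0, with 16 (17.8%) higher and 8 (8.9%) lower at an unadjusted p under 0.05, against 14.6% and 11.5% of all tested target genes. By fold, 29 of the 90 (32.2%) were at least 1.5-fold higher and 16 (17.8%) lower, against 26.2% and 14.4% of the tested target genes and 7.64% and 6.56% of all tested genes. These counts, and those by list in this paragraph and the next, include genes that passed the filter through a single group. Of the 57 listed genes that passed in both groups, 13 (22.8%) were higher and 4 (7.02%) lower, against 17.1% and 11.2% of all such target genes and 5.08% and 5.04% of all such genes. In the WNT pathway 10 of 35 were tested, 4 of them at least 1.5-fold higher and 2 lower, and of the 7 that passed in both groups 2 were higher and 1 lower. The genes named in the rest of this paragraph were chosen after their values were seen. Fzd2 stood at 0.56 and 0.93 FPKM in shCtl and at 2.75 and 4.73 in shCbx6, and Sfrp2, for a secreted WNT inhibitor, at 5.31 and 5.49 against 10.0 and 12.1 FPKM. Fzd10 stood at 6.28 and 6.45 against 4.27 and 3.40 FPKM, in the opposite direction, and Ror2 at 4.74 and 5.19 against 4.78 and 5.14, within the spread of shCtl. In the FGF list, Fgfr2 stood at 0.31 and 0.19 against 1.61 and 2.27 FPKM. Fzd2 and Fgfr2 passed the filter only through shCbx6 and so had to differ. Wnt1 was listed at 0 in every library.

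Of the homeobox genes with a narrow site, 15 were tested, with 3 at least 1.5-fold higher and 7 lower, but of the 8 that passed the filter in both groups 1 was higher and 2 were lower. Among the 15, again chosen after their values were seen, Pou3f1, for a neural POU factor, stood at 0.93 and 0.98 FPKM in shCtl against 4.55 and 10.4 in shCbx6. Cdx1, a caudal homeobox gene, stood at 2.58 and 2.80 against 0.80 and 0.66. Pou3f1 passed the filter only through shCbx6 and Cdx1 only through shCtl, so both had to differ. Ion channel genes had 5 of 13 tested at least 1.5-fold higher and 4 lower, and of the 8 that passed in both groups 4 were higher and 1 was lower. Cacnb3, for a calcium channel beta subunit, stood at 7.01 and 6.68 against 16.4 and 17.8 FPKM (adjusted p = 0.076 by limma), with the 2 shCbx6 libraries close to each other. Of the axon guidance genes 3 passed in both groups, with 2 at least 1.5-fold higher and 0 lower, and of the cadherins 2 passed, both of them higher. These lists are too short to be read against the shares of 5.08% and 5.04% over all such genes. Of the cyclin-dependent kinase inhibitors, Cdkn1c stood at 9.39 and 11.4 against 12.1 and 15.2 FPKM and Cdkn2a at 2.96 and 1.93 against 3.05 and 4.90 FPKM. All 3 Polycomb genes differed by less than 1.5-fold, with Cbx2 at 8.90 and 9.52 against 8.97 and 11.3 FPKM.

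Most members of the signalling lists stood at low levels in all 4 libraries, and the expressed ones are given here as values, chosen after they were seen. Among WNT genes, 27 of 35 lay under 1 FPKM in shCtl. The ligand gene Wnt5b stood at 0.46 and 0.64 FPKM in shCtl against 0.53 and 0.83 in shCbx6. Axin2, a target and inhibitor of the pathway, stood at 4.87 and 4.83 FPKM in shCtl against 4.82 and 7.12 in shCbx6, with replicate 2 of shCbx6 above the other 3 libraries. The receptor gene Fzd4 stood at 1.53 and 1.19 FPKM in shCtl against 0.81 and 0.71 in shCbx6. It passed the filter only through shCtl and so had to differ. Of the FGF list, 11 of 16 lay under 1 FPKM. Fgfr1, the main FGF receptor of ESCs, stood at 10.3 and 10.1 FPKM in shCtl against 11.2 and 17.8 in shCbx6, and Spry1, a feedback inhibitor of receptor signalling, at 8.997 and 11.0 FPKM in shCtl against 15.0 and 14.2 in shCbx6, both with shCbx6 values above those of shCtl. The ligand gene Fgf15 stood at 5.54 and 3.50 FPKM in shCtl against 6.19 and 6.25 in shCbx6, where the groups do not overlap but lie within 1 FPKM at their nearest. In the TGF-beta list 23 of 26 lay under 1 FPKM, and the exceptions included Smad3, a signal transducer, at 2.74 and 2.83 FPKM in shCtl against 1.82 and 3.45 in shCbx6, and the ligand gene Tgfb1 at 1.77 and 2.95 FPKM in shCtl against 1.07 and 2.25 in shCbx6. In both the groups overlapped, and no gene of these 3 lists passed limma.

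Axon guidance genes with a narrow site lay under 1 FPKM in 24 of 29 cases. The genes named in this paragraph were chosen after their values were seen. Ntn1, for netrin-1, was the most expressed of those named here, at 21.2 and 18.9 FPKM in shCtl against 23.3 and 12.6 in shCbx6, and its groups overlapped. Its receptor gene Unc5b stood at 2.27 and 2.69 FPKM in shCtl against 3.86 and 10.2 in shCbx6, above shCtl in both libraries. The ephrin gene Efnb2 stood at 0.74 and 0.74 FPKM in shCtl against 3.18 and 5.50 in shCbx6. Efnb2 passed the filter only through shCbx6 and so had to differ. Of the ion channel genes 61 of 73 lay under 1 FPKM. The potassium channel genes differed in direction. Of 9 tested, including genes admitted through a single group, 4 were at least 1.5-fold higher and 3 lower. Kcnk1 stood at 3.09 and 4.28 FPKM in shCtl against 10.4 and 18.7 in shCbx6, and Kcnj3 at 0.80 and 1.35 against 3.30 and 5.40. Kcns3 stood at 2.11 and 2.07 FPKM in shCtl against 1.05 and 1.05 in shCbx6. The glutamate receptor gene Grik3 stood at 11.6 and 10.2 FPKM in shCtl against 8.12 and 8.26 in shCbx6, lower in both shCbx6 libraries by less than 1.5-fold. None of these genes passed limma.

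Imprinted genes included several that were expressed from loci with a narrow site. Apart from Dlk1, the genes named in this paragraph were chosen after their values were seen. Grb10, for a growth-inhibiting adaptor, stood at 62.0 and 73.3 FPKM in shCtl against 47.0 and 60.1 in shCbx6, and Phlda2, a growth restraint in the placenta, at 94.8 and 131 FPKM in shCtl against 99.1 and 118 in shCbx6. Igf2r, for the receptor that clears IGF2, stood at 13.4 and 12.8 FPKM in shCtl against 12.7 and 15.3 in shCbx6. In Phlda2 the groups overlapped, and in Grb10 the shCbx6 values lay below those of shCtl by less than 1.5-fold. Dlk1, for a Notch-like ligand, stood at 0.14 and 0.15 FPKM in shCtl against 0.40 and 0.82 in shCbx6, under the filter in both groups. The helix-loop-helix inhibitors Id3 and Id4 differed in direction, with Id3 at 23.0 and 22.2 FPKM in shCtl against 31.8 and 51.7 in shCbx6. Id4 stood at 1.89 and 1.93 FPKM in shCtl against 1.41 and 0.57 in shCbx6. Id4 passed the filter only through shCtl and so had to differ. The cadherin gene Cdh3, for P-cadherin, stood at 4.51 and 5.55 FPKM in shCtl against 9.33 and 11.5 in shCbx6, higher in each shCbx6 library. Slc40a1, for the iron exporter ferroportin, stood at 0.54 and 0.56 FPKM in shCtl against 2.85 and 7.21 in shCbx6. Slc40a1 passed the filter only through shCbx6 and so had to differ. Neither gene passed limma.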

How the data were processed

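The authors aligned ChIP-seq reads to mm9 with Bowtie, kept uniquely mapping reads and called peaks per sample with MACS (shift size 75 bp). The score deposited with each peak is the authors' MACS score. They aligned RNA-seq reads with TopHat, and the deposited FPKM per gene are their Cufflinks estimates on RefSeq. Tool versions are not given in the sources used here.

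The members and lists were chosen with earlier results of these data known. Peaks were overlapped in Python 3.11.15 (numpy 2.4.6, pandas 2.3.3, scipy 1.17.1, figures with matplotlib 3.10.9) and checked against bedtools 2.31.1. TSS came from GENCODE on NCBIM37, the same assembly as mm9. Of 23265 symbols, 21908 (94.2%) had coordinates, 25 date entries being dropped. Genes reaching a mean of 1 FPKM in shCtl or in shCbx6 were tested on log2(FPKM + 1) with limma 3.58.1 (R 4.3.3, eBayes with trend, adjusted p under 0.05), after a test on simulated data.

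Named by rule were the 5 highest and 3 lowest RING1B scores at a TSS, the sites nearest the width limit, the 5 highest shCtl levels, the 5 largest changes each way among TSS genes whose groups do not overlap, limma calls, the top 2 sites of each list and Cbx6. The roles within lists, motifs, quartiles, expression bands, their limit to genes that reach the filter in both groups, per-library counts and the sequences of the weakest sites and of Mapt were chosen after values were seen, and sequence windows over an untranslated region were passed over. Of the windows so selected, 1 is not reported here. Intervals are 95% Wilson intervals and cover counting error only. Alternatives covered the width, overlap, score and TSS limits, the target rule, the filter, pseudocount, scaling, trend and block of the fit, and each library left out.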

Additional observations from a re-analysis of the deposited data

How the results depend on the processing

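The number of narrow shared sites (2314) was 1425 where CBX6 and CBX7 peaks needed a score of at least 100. The 2 CBX6 replicates left out in turn gave 2640 to 2816 sites, and width limits 1 kb lower or higher or an overlap of 50% kept the count within 1.5 times. The share at a TSS (84.4%) was 82.1% with a window of 1 kb and 87.5% with 5 kb. The median CpG ratio of 0.79 was 0.61 over whole sites. Target genes under 1 FPKM in shCtl (70.9%) were 70.4% by TSS alone, 70.7% without genes that have a wide peak, and 71.2 to 71.3% with a shCtl library left out. Their median of 0.255 FPKM was 0.264, 0.261 and 0.247 to 0.251 in the same order.

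Target genes called by limma numbered 1, but 3 with a pseudocount of 0.1, 0 without the filter and 0 to 94 with a library left out. Without shCbx6 replicate 1 the 94 were among 397 calls over all genes, where the single shCbx6 library was assumed to vary like the shCtl group. Without shCbx6 replicate 2 there were 3 of 35, and without shCtl replicate 1 or 2 there were 0 of 22 and 0 of 19. With the replicate block 64 of the 738 tested target genes were called, against 388 of all 11577 genes tested. Of the 90 listed genes tested, 13 were called in that fit. With 2 pairs the numbers are only shared numbers: the deviations of same-numbered samples had a correlation of 0.27, equal in both groups by construction, and no pairing was assumed. Without the filter 709 target genes were at least 1.5-fold higher and 362 lower, where 70.9% of target genes lay under 1 FPKM in shCtl. Among genes that passed the filter in both groups, a setting chosen after seeing the data, the counts were 95 and 62. Those are 17.1% and 11.2% of the target genes that passed, against 5.08% and 5.04% of all such genes. Leaving out a library gave 114 to 281 higher, the lowest without shCbx6 replicate 2, and 112 to 128 lower. The shares over all genes were not computed without the filter or with a library left out. Those counts therefore have no background here. The median log2 fold change of target genes, 0.07, ranged from -0.052 without shCbx6 replicate 2 to 0.20 without shCbx6 replicate 1. The causes were not tested. Of 199 alternative values for 25 named genes, 174 kept their side of the threshold, 22 became calls and 3, all for Mapt, lost the call. Of the 199, 4 values had the opposite sign, none of them a call in either setting.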
